A study of Mus musculus with 21 samples.

Results

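The 10 imprinted genes followed here are linked to the quiescence of hematopoietic stem cells (HSCs), and were read from RNA sequencing of mouse bone marrow HSCs: Cdkn1c, H19, Igf2, Meg3, Rian, Mirg, Dlk1, Grb10, Ndn and Peg3. The members were taken by their symbols from a count table of 21000 symbols. Of the 10 symbols, 6 had a row (Cdkn1c, Igf2, Dlk1, Grb10, Ndn and Peg3). H19, Meg3, Rian and Mirg, the 4 members that are non-coding RNA genes, had no row in the table used here, whose 21000 symbols are all annotated as protein-coding by RefSeq, and no level is given for them. Among the 6 members with a row, Cdkn1c, Dlk1, Grb10 and Ndn had more than 3 counts in each of the 21 libraries, Igf2 in 18 and Peg3 in 8.

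An imprinted gene is expressed from the copy inherited from 1 parent only, which the counts per symbol used here cannot show. Methylation that is laid down in the germ line at a control region, and copied at each cell division by the maintenance methyltransferase Dnmt1 with Uhrf1, marks the parental origin of the copy. In HSCs, Cdkn1c (the cyclin-dependent kinase inhibitor p57) is known for holding cells out of the cell cycle, the H19-Igf2 and Dlk1-Meg3 domains are known for restraining insulin-like growth factor (IGF) and PI3K-mTOR signalling, and Ndn (necdin) is known as a growth suppressor that interacts with p53.

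The cells were CD150+CD48-Lineage-Sca-1+c-Kit+ HSCs of wild-type C57BL/6 mice, and 3000 to 3500 cells were used per library. Mice given PBS or 5-fluorouracil (5-FU, a cytotoxic drug that kills cycling progenitors and drives HSCs to divide) at 150 mg/kg intraperitoneally were 10 weeks old. The 7 groups, each of 3 libraries from independent experiments, were PBS once and 5-FU once at day 6, 5-FU once at day 21, PBS 3 times and 5-FU 3 times (every 21 days) at day 6 of the last round, 5-FU 3 times at day 21, and untreated HSCs from mice 2 years old. No PBS library was made at day 21, so day 21 was set against PBS at day 6 and time and treatment cannot be told apart there. Shortly after 5-FU the sorting gate was widened to c-Kit-dim cells and the Mac-1 antibody was left out. This cannot be told apart from the treatment at day 6, nor from time where day 21 is set against day 6 after 5-FU. The 6 columns of PBS once and 5-FU once at day 6 carry a name suffix that the other 15 lack. Its meaning is not given in the sources used here. In comparisons between the schedules it cannot be told apart from the number of administrations. Nor can it be told apart from time, or from time and treatment, where 5-FU once at day 21 is set against these groups.

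The libraries held between 22184885 and 38649033 counts (median 26962256), so that 3 counts, taken as the floor of a library, were between 0.0850 and 0.128 CPM (gene counts relative to library size, with TMM factors over the 21 libraries). All 11 HSC markers were present in every group, with summed levels of 4836 to 5263 CPM in PBS once and 3936 to 4026 CPM in 5-FU once at day 6, and of 4682 to 4991 CPM in PBS 3 times and 3607 to 3734 CPM in 5-FU 3 times at day 6. Among markers of other cells, the summed level in PBS once against 5-FU once at day 6 was 77.9 to 103 against 45.8 to 57.7 CPM for 9 myeloid genes (Ctsg at 0 in both groups), 113 to 137 against 34.1 to 43.2 CPM for 6 megakaryocyte genes (Gp6 at 0 in both), 34.0 to 46.2 against 38.6 to 41.1 CPM for 6 endothelial genes, 1377 to 1420 against 1095 to 1146 CPM for 7 erythroid genes, 38.4 to 45.5 against 35.8 to 44.8 CPM for 5 B cell genes, and 46.8 to 60.6 against 30.6 to 43.1 CPM for 5 T and NK cell genes (Cd3e at 0 in both). The sums in PBS 3 times against 5-FU 3 times at day 6 were 69.1 to 94.5 against 39.9 to 57.3 CPM for myeloid, 116 to 129 against 80.5 to 86.4 CPM for megakaryocyte, 33.5 to 39.4 against 32.4 to 36.6 CPM for endothelial, 1287 to 1525 against 1072 to 1124 CPM for erythroid (Car1 at 0 in 5-FU), 43.2 to 52.7 against 36.2 to 36.7 CPM for B cell (Ebf1 at 0 in PBS), and 50.8 to 54.0 against 45.2 to 58.4 CPM for T and NK cell genes (Cd3e and Cd3g at 0 in both). HSC, myeloid, megakaryocyte and erythroid sums were thus lower after 5-FU without overlap in both schedules. So were T and NK cell sums after 5-FU once, and B cell sums after 5-FU 3 times. Most of the erythroid sum was Car2, with means of 1374 CPM in PBS once and 1067 CPM in 5-FU once at day 6. Another gene of that list, Hbb-bs, rose after both schedules (edgeR, log2 fold change 2.85, adjusted p = 0.000524, and 1.51, adjusted p = 0.00225). Epor rose after 5-FU 3 times, and Klf1 fell after 5-FU once. The part of these marker genes in the results was not tested. These are bulk samples, in which fewer cells that express a gene and less of its RNA per cell cannot be told apart.

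Per kilobase of the longest annotated transcript, Grb10 was the most abundant member (57.6 CPM per kb over all libraries), followed by Cdkn1c (41.8), Ndn (4.96), Dlk1 (0.980), Igf2 (0.510) and Peg3 (0.0545). Grb10 and Cdkn1c were thus well above the rest, and the results for Dlk1, Igf2 and Peg3 rest on few reads. In the plot of the members' levels, the scale of each panel differs accordingly.

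**Figure D1:**
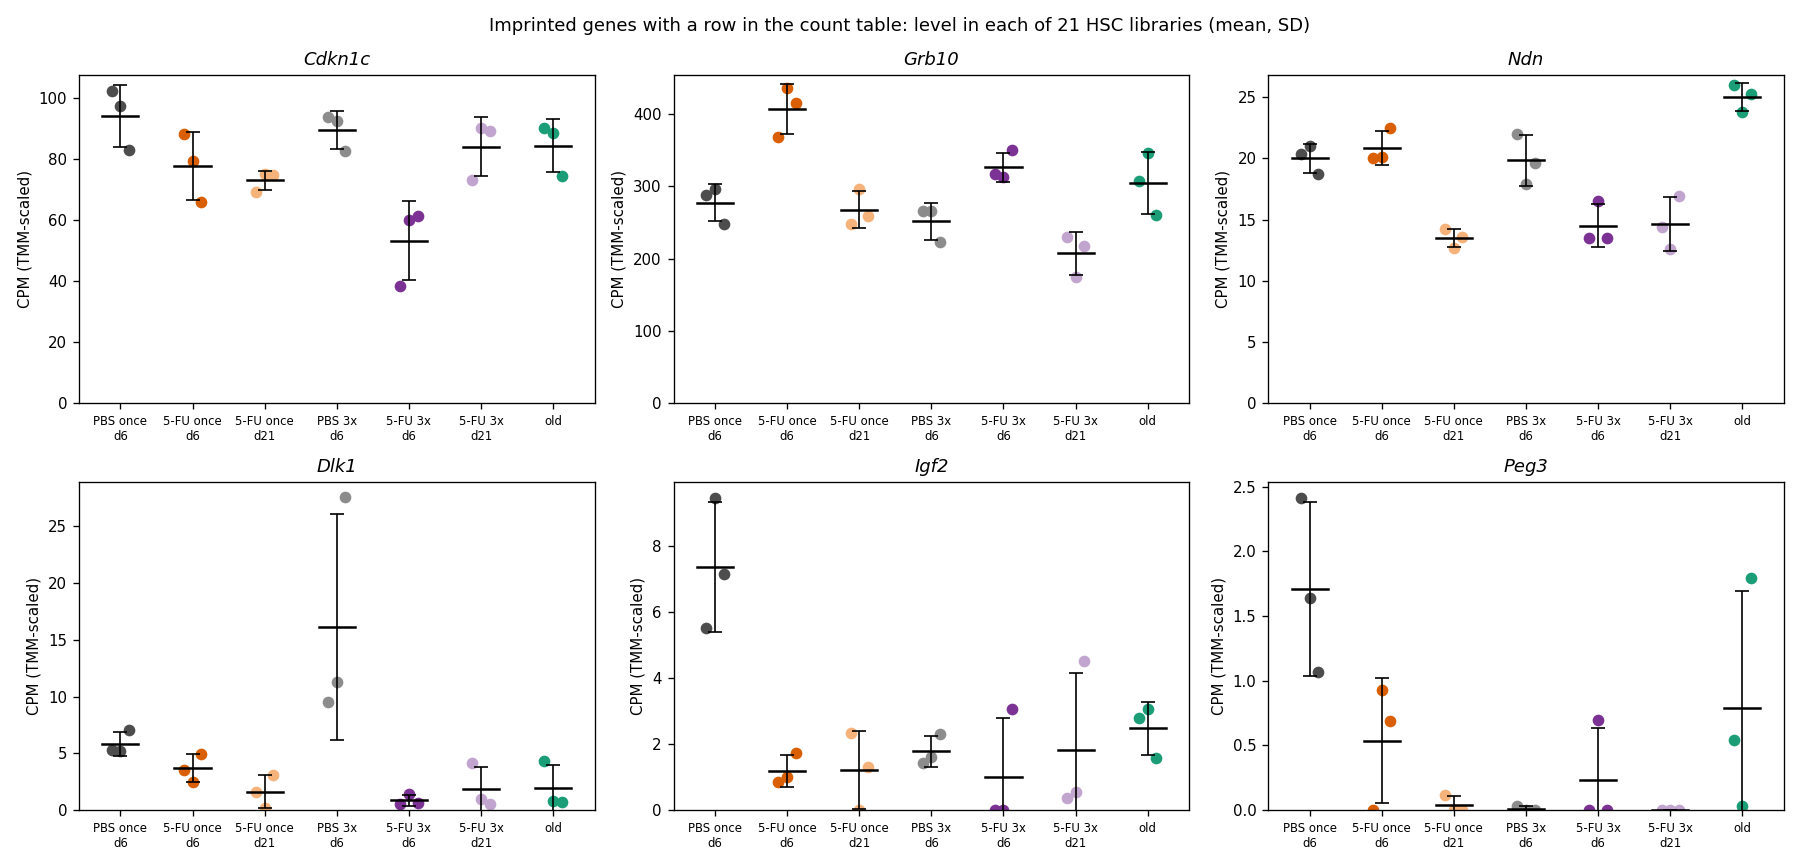
CPM (TMM-scaled, linear axis from 0) of the 6 members with a row in each of the 21 libraries; points are libraries, the long horizontal line is the mean and the bars are the SD of 3 libraries, drawn down to 0 at most. Grb10 is highest in 5-FU once at day 6 (368 to 436 CPM), Cdkn1c lowest in 5-FU 3 times at day 6 (38.4 to 61.3 CPM), Igf2 highest in PBS once (5.52 to 9.44 CPM) and Dlk1 highest in PBS 3 times (9.48 to 27.5 CPM).

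The members lie in 6 domains (GRCm38). Cdkn1c (chr7:143458339-143461050, minus strand), Igf2 (chr7:142650766-142666816, minus) and H19 (chr7:142575529-142578143, minus) are close together on distal chromosome 7, while Ndn (chr7:62346569-62350262, plus, a single-exon gene) and Peg3 (chr7:6703892-6730431, minus) lie elsewhere on that chromosome. Dlk1 (chr12:109452823-109463336), Meg3 (chr12:109541001-109571726), Rian (chr12:109603940-109661716) and Mirg (chr12:109729764-109749460) follow each other on the plus strand of chromosome 12. Grb10 spans chr11:11930508-12038683 on the minus strand. The reads of 2 members may be shared with another annotation: 62.8% of the exonic bases of Igf2 also belong to Gm49394 on the same strand, and 30.7% of those of Cdkn1c to Gm44732 on the opposite strand, and the sources used here do not say how such reads were counted.

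The start regions of Grb10 are shown because counts per symbol merge them, Grb10 being known for transcripts of different parental origin from different starts, and that of Dlk1 because its level had the widest range among the 5 members detected in most libraries. Each window runs from 250 bases before to 50 bases after the start (RefSeq, GRCm38.p6), is written 5′ to 3′ on the gene's strand, and has every CG dinucleotide, the site of DNA methylation, in capitals.
Grb10, upstream start, chr11:12037371-12037670, minus: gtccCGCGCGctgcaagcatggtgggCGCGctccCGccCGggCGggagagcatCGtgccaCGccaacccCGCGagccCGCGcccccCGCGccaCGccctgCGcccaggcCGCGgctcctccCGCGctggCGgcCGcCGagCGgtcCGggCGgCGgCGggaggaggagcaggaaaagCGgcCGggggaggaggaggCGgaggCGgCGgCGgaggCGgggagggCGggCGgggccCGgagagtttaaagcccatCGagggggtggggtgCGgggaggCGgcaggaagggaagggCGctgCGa
Grb10, downstream start, chr11:12027922-12028221, minus: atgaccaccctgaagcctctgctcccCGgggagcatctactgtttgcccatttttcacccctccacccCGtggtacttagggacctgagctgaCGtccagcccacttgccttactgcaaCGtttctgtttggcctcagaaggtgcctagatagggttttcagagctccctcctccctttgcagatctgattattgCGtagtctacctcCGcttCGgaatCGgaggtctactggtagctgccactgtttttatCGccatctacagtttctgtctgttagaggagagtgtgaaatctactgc
Dlk1, chr12:109452573-109452872, plus: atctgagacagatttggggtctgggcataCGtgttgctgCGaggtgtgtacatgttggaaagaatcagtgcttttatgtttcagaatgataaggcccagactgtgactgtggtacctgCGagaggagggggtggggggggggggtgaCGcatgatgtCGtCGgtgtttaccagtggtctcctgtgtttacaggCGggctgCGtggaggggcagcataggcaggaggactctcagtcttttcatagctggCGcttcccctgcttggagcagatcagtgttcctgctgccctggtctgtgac
The upstream window of Grb10 held 45 CG dinucleotides, a number that 1.93% of all 32851 windows of this length reached, whereas the downstream window held 9, reached by 45.8%, and that of Dlk1 also held 9. The median over all windows was 7. Of the other members, 4 windows of Igf2 held 2, 14, 24 and 7, Ndn 11 and Peg3 13. The letters CCGCGNGGNGGCAG, the core of the CTCF motif, were searched on both strands and were in none of the 13 windows found for 8 of the members. They were in 0.0365% of all windows. The counts per symbol do not separate the Grb10 starts, so the values below are sums over both.

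The first question was how the members moved as HSCs were driven into division. At day 6 after a single 5-FU administration, Igf2 was lower and Grb10 higher than after PBS, and Cdkn1c, Dlk1, Ndn and Peg3 did not pass the test (edgeR quasi-likelihood test, Benjamini-Hochberg adjustment over all 12759 genes tested). The 2 members called of 6 tested stand beside 22.2% of all genes called. At day 6 of the third round, 4 members of 5 tested were called, beside 18.1% of all 12729 genes: Cdkn1c, Dlk1 and Ndn were lower and Grb10 was higher. Grb10 was the member called after both schedules.

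The cell cycle inhibitors come first. Cdkn1c stood at 102, 97.5 and 82.9 CPM in PBS once and at 88.1, 79.3 and 66.1 CPM in 5-FU once at day 6. These groups overlapped, and the log2 fold change of −0.29 (SE 0.13, 95% interval −0.58 to 0.01, adjusted p = 0.143) did not pass. In PBS 3 times Cdkn1c stood at 93.7, 92.6 and 82.6 CPM, and in 5-FU 3 times at day 6 at 38.4, 60.2 and 61.3 CPM. Here every 5-FU library was below every PBS library, and the fold change was −0.77 on the log2 scale (SE 0.18, adjusted p = 0.0277), a mean 1.68-fold lower. The call was lost in 4 of the 6 fits that left out 1 library, those without 5-FU replicate 2 or without any 1 of the 3 PBS libraries, with adjusted p between 0.0505 and 0.0757. The change after 3 administrations minus that after 1 was −0.47 on the log2 scale and did not pass (adjusted p = 0.390), so the schedules were not shown to differ.

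Cdkn1c made up most of the Cip/Kip inhibitor message. As a share of the summed CPM per kb of Cdkn1a (p21), Cdkn1b (p27) and Cdkn1c, a measure added after the values were seen, Cdkn1c was 92.4% ± 0.929 (SD, n = 3) in PBS once and 83.1% ± 2.30 in 5-FU once at day 6. After 3 administrations the share was 91.1% ± 1.77 with PBS and 79.8% ± 1.41 with 5-FU at day 6. In both schedules the groups did not overlap, and the exact permutation test gave p = 0.1 (two-sided), the smallest that 3 against 3 libraries can give. Groups without overlap always give this value, so the test adds nothing to the lack of overlap. The share was 92.6% ± 1.42 and 92.0% ± 2.46 at day 21 after 1 and 3 administrations, and 91.8% ± 1.42 in old HSCs. Cdkn1a, the p53 target among the inhibitors, accounted for most of the remainder at day 6 after 5-FU. Its level was 3.77 to 6.30 CPM in PBS once and 14.0 to 14.4 CPM in 5-FU once at day 6 (log2 fold change 1.44, SE 0.19, adjusted p = 0.00385), and 4.10 to 6.65 CPM in PBS 3 times against 7.51 to 14.2 CPM in 5-FU 3 times (0.97, SE 0.29, adjusted p = 0.0590).

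**Figure D2:**
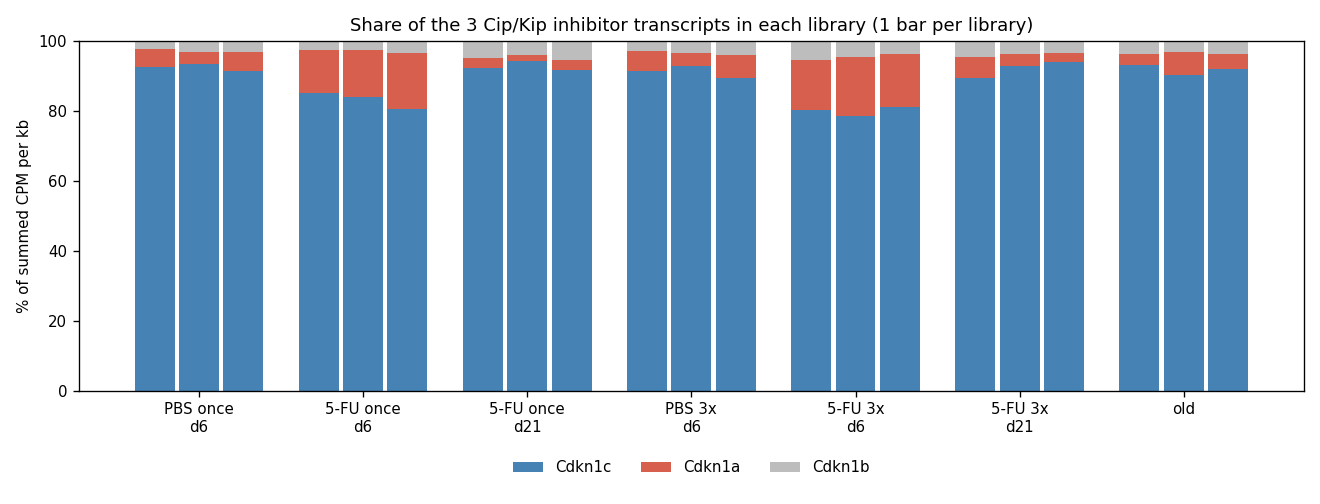
Share of Cdkn1c, Cdkn1a and Cdkn1b in their summed CPM per kb of longest transcript (y axis, percent), 1 stacked bar per library, grouped by condition. The Cdkn1c share is 78.3% to 85.0% in the 6 libraries of 5-FU at day 6 and 89.2% to 94.2% in the other 15.

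Of the 7 other CDK inhibitor genes listed, 5 were tested. Over all genes, 22.2% were called after 5-FU once and 18.1% after 5-FU 3 times. After 5-FU once Cdkn1a and Cdkn3, a phosphatase gene that is itself cell cycle regulated, rose (Cdkn3 log2 fold change 0.94, adjusted p = 0.0297), and after 5-FU 3 times Cdkn3 rose (1.08, adjusted p = 0.00839); none fell. The median log2 fold change of the list was −0.15 after 5-FU once and −0.08 after 5-FU 3 times. Cdkn1b was 6.30 to 8.51 CPM in PBS once and 6.22 to 6.85 CPM in 5-FU once at day 6, with a fold change of −0.15 (adjusted p = 0.582).

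Ndn stood at 20.4, 21.0 and 18.7 CPM in PBS once and at 20.0, 20.1 and 22.5 CPM in 5-FU once at day 6. The difference was 0.05 on the log2 scale with an interval of −0.16 to 0.27 (adjusted p = 0.723). In PBS 3 times it stood at 21.99, 17.9 and 19.7 CPM and in 5-FU 3 times at day 6 at 13.5, 16.5 and 13.5 CPM, with no overlap between the groups. That was a mean 1.37-fold lower level (log2 fold change −0.48, SE 0.13, adjusted p = 0.0410), a call that was lost in 7 of 13 alternative fits, among them each fit that left out 1 library except that without 5-FU replicate 2, with adjusted p up to 0.126. The difference between the schedules was −0.51 (adjusted p = 0.138) and did not pass.

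Igf2, the paternally expressed growth factor, was the member that fell most after a single 5-FU administration. It stood at 5.52, 9.44 and 7.15 CPM in PBS once and at 0.840, 1.00 and 1.72 CPM in 5-FU once at day 6, a mean 6.21-fold lower. The fold change of −2.64 (SE 0.36, adjusted p = 0.00433) passed the test. In PBS 3 times, however, Igf2 stood at only 1.41, 1.61 and 2.31 CPM, and in 5-FU 3 times at day 6 at 0, 0 and 3.06 CPM. These groups overlapped and the fold change of −0.81 had an interval from −4.76 to 3.14 (adjusted p = 0.774). Without 5-FU 3 times replicate 3 the 5-FU libraries left are all at 0 and the adjusted p is 0.0252 (edgeR). Igf2 then passed the filter only through PBS 3 times and could only be called lower, so that p-value is no support. The difference between the schedules was 1.84 (interval −2.04 to 5.73, adjusted p = 0.682).

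The Igf2 level of each PBS once library was above those of all 18 other libraries, whose highest value was 4.53 CPM in 5-FU 3 times at day 21. With all 6 PBS libraries as the control, an alternative added after the data were seen, the fold change of 5-FU once was −1.95 and the adjusted p 0.0584. In a single fit of all 21 libraries it was −2.63 with adjusted p 0.217. Markers of marrow stroma were also lower after 5-FU once: the sum of 8 stroma genes was 54.3 to 127 CPM in PBS once and 7.54 to 12.4 CPM in 5-FU once at day 6. It was 36.5 to 56.6 CPM in PBS 3 times and 27.5 to 49.4 CPM in 5-FU 3 times at day 6. The mean Igf2 level was 7.37 CPM in PBS once and 1.78 CPM in PBS 3 times. At day 6 it was 1.19 CPM in 5-FU once and 1.02 CPM in 5-FU 3 times, the latter from 1 library at 3.06 CPM. Of 5 stroma genes tested in each schedule, 2 were lower after 5-FU once (median −2.35), Cxcl12 and Pdgfrb. After 5-FU 3 times 1 was lower, Pdgfrb (median 0.25). Cxcl12, a chemokine of stromal niche cells, was 16.6 to 69.0 CPM in PBS once and 0.421 to 2.59 CPM in 5-FU once (log2 fold change −4.88, adjusted p = 0.00462), and Col3a1 was at 0 in all libraries. Their part in the Igf2 result was not tested.

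Grb10, an adaptor that binds the insulin and IGF1 receptors and dampens their signalling, rose. It stood at 288, 296 and 249 CPM in PBS once and at 368, 436 and 415 CPM in 5-FU once at day 6, so that the groups did not overlap. The level was 1.46-fold higher (log2 fold change 0.54, SE 0.093, adjusted p = 0.00885), and the call held in all 13 alternatives tried. In PBS 3 times it stood at 266, 266 and 222 CPM and in 5-FU 3 times at day 6 at 317, 313 and 350 CPM, again without overlap. That was 1.30-fold higher (0.36, SE 0.095, adjusted p = 0.0414), but the call was lost in 9 of 13 alternatives, among them each of the 6 fits that left out 1 library, with adjusted p up to 0.120. The difference between the schedules was −0.17 (adjusted p = 0.611).

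Genes of IGF signalling around Igf2 and Grb10 moved in both directions after 5-FU once. Of 17 genes listed, 10 were tested after 5-FU once, with 1 higher and 3 lower. After 5-FU 3 times 9 were tested, with 0 higher and 5 lower. Over all genes, 22.2% and 18.1% were called. The medians were −0.45 (the same with Igfbp5 set to its bound) and −0.69, beside medians over all genes of −6e-04 and −0.01. Igfbp5, at 0 in all 5-FU once libraries, passed the filter only through PBS once, so it could only be called lower. Insr, the insulin receptor, fell after both schedules (−0.63, adjusted p = 0.0258, and −0.58, adjusted p = 0.0155). Igf1r fell after 5-FU once (−0.37, adjusted p = 0.0383). After 5-FU 3 times Igf2r, the imprinted receptor that clears Igf2, fell (−0.85, adjusted p = 0.0202), as did Irs2, a docking protein of the receptors (−0.84, adjusted p = 0.0401). Igfbp4, a binding protein, rose after 5-FU once (0.29, adjusted p = 0.0200). Igf1, the other ligand, stood at 8.58 to 30.0 CPM in PBS once and at 40.8 to 47.0 CPM in 5-FU once at day 6 (1.16, adjusted p = 0.0648), but at 9.61 to 16.2 CPM in PBS 3 times and 2.12 to 5.36 CPM in 5-FU 3 times (−1.72, adjusted p = 0.0186). The difference between the schedules for Igf1 was −2.87 (adjusted p = 0.0529) and did not pass.

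Dlk1, a paternally expressed transmembrane protein of the Delta family, had the widest range among the 5 members detected in most libraries, its highest group mean being 18.5-fold above its lowest. It stood at 5.30, 5.19 and 7.02 CPM in PBS once and at 3.57, 2.52 and 4.98 CPM in 5-FU once at day 6. The groups did not overlap, but the fold change of −0.67 (SE 0.30, 95% interval −1.37 to 0.03, adjusted p = 0.147) did not pass. In PBS 3 times it stood at 9.48, 11.3 and 27.5 CPM and in 5-FU 3 times at day 6 at 0.554, 1.46 and 0.595 CPM, 18.5-fold lower in the mean. That fall of 4.24 on the log2 scale (SE 0.57, adjusted p = 0.00533) was called in all 13 alternatives, with fold changes between −4.81 and −3.60. The effect of 5-FU after 3 administrations minus that after 1 was −3.56 (SE 0.66, adjusted p = 0.0394), and Dlk1 was the 1 member of 6 tested that was called for this difference, beside 0.650% of all 13227 genes. The call for the difference was lost in 11 of 18 alternatives, with adjusted p up to 0.202, 9 of them fits without 1 library (any of PBS once or 5-FU once, PBS 3 times replicate 3, or 5-FU 3 times replicate 1 or 3). Dlk1 in PBS 3 times was higher in every library than in PBS once, and in 5-FU 3 times it was lower in every library than in 5-FU once.

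Peg3, a paternally expressed zinc finger gene, was at 0 counts in 10 libraries. It stood at 2.41, 1.64 and 1.07 CPM in PBS once and at 0, 0.926 and 0.689 CPM in 5-FU once at day 6. The PBS libraries were all higher, but the interval of the fold change, −4.15 to 0.84, spans 0 (adjusted p = 0.298). In PBS 3 times it stood at 0.0322, 0 and 0 CPM, below the floor, and only 1 library of 5-FU 3 times at day 6 was above it, at 0.695 CPM, so that Peg3 was not detectable in most libraries of that schedule at this depth and was not tested there.

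**Figure D3:**
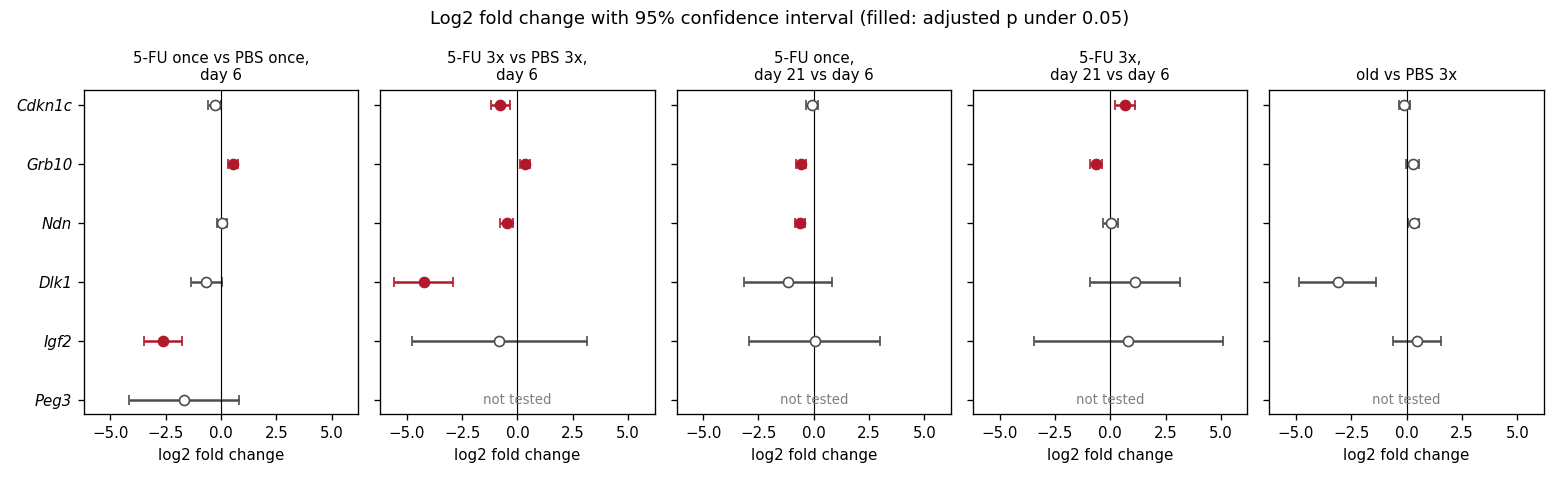
Log2 fold change (x axis) with its 95% confidence interval for each member in 5 comparisons; filled red points passed an adjusted p of 0.05 (edgeR), open points did not, and Peg3 was tested in the first panel only. Grb10 is above 0 in both day 6 panels and below 0 in both panels of day 21 against day 6, and the intervals of Igf2 are widest where some libraries are at 0.

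The next question was whether the members returned as HSCs settled again. Day 21 was compared with day 6 after the same 5-FU schedule, comparisons that share their day 6 libraries with those above. The paper widened the sorting gate only shortly after 5-FU, so gate and time cannot be told apart in these comparisons. The name suffix also separates the day 6 from the day 21 libraries of 5-FU once. After 5-FU once, Grb10 and Ndn fell from day 6 to day 21, 2 of 5 members tested beside 26.0% of all 12589 genes. Grb10 stood at 248, 297 and 259 CPM at day 21, all below the 3 day 6 libraries (−0.59, SE 0.10, adjusted p = 0.00708). Ndn stood at 14.2, 12.7 and 13.5 CPM, also all below day 6 (−0.62, SE 0.099, adjusted p = 0.00591). Both calls held in all 12 alternatives. Cdkn1c stood at 69.3, 75.02 and 74.9 CPM at day 21, within the range of day 6 (−0.08, interval −0.36 to 0.19, adjusted p = 0.637). Dlk1 (−1.17, interval −3.16 to 0.82, adjusted p = 0.343) and Igf2 (0.03, interval −2.92 to 2.99) did not pass either.

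After 5-FU 3 times, Cdkn1c rose and Grb10 fell from day 6 to day 21, again 2 of 5 members tested, beside 19.5% of all 12553 genes. Cdkn1c stood at 73.1, 90.2 and 89.1 CPM at day 21, above every day 6 library (0.66, SE 0.19, adjusted p = 0.0471), but the call was lost in each of the 6 fits that left out 1 library (adjusted p up to 0.117). Grb10 stood at 230, 174 and 217 CPM, below every day 6 library (−0.65, SE 0.12, adjusted p = 0.0102), a call that held in all 12 alternatives. Ndn stood at 14.4, 12.6 and 17.0 CPM and did not move from day 6 by more than its spread (0.02, interval −0.32 to 0.36). Dlk1 stood at 4.11, 0.987 and 0.512 CPM, and Igf2 at 0.374, 0.548 and 4.53 CPM, each with 1 library apart from the other two. Their fold changes of 1.11 (interval −0.91 to 3.14) and 0.82 (interval −3.46 to 5.10) did not pass.

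At day 21 against PBS at day 6, which share their PBS libraries with the comparisons above, 0 of 6 members tested after 5-FU once were called, beside 0.221% of all 12647 genes (28 genes, and 1685 at an unadjusted p under 0.05), and 0 of 5 after 5-FU 3 times, beside 0.0475% of all 12632 (6 genes, and 1725 unadjusted). DESeq2 called 725 and 592 genes, and of the members Cdkn1c, Ndn and Peg3 after 5-FU once and Dlk1 after 5-FU 3 times. Ndn was lower in every day 21 library than in every PBS library in both schedules, with fold changes of −0.57 (SE 0.10, adjusted p = 0.0749) and −0.44 (SE 0.14, adjusted p = 0.255). After 5-FU once, the Ndn difference passed in a single fit of all 21 libraries (adjusted p = 0.0153) and with all 6 PBS libraries as the control (0.0254). Cdkn1c after 5-FU once was likewise lower without overlap (−0.37, interval −0.61 to −0.13, adjusted p = 0.192), whereas after 5-FU 3 times it overlapped with PBS (−0.10, interval −0.36 to 0.16). Dlk1 stood at 1.60, 0.170 and 3.12 CPM at day 21 after 5-FU once, below every PBS once library (−1.84, adjusted p = 0.381), and after 5-FU 3 times also below every PBS 3 times library (−3.10, adjusted p = 0.177). Igf2 at day 21 after 5-FU once stood at 2.34, 0 and 1.31 CPM (−2.62, interval −5.13 to −0.11, adjusted p = 0.358), and after 5-FU 3 times its fold change was 0.02 (interval −2.20 to 2.24). Grb10 was at −0.05 (interval −0.29 to 0.19) after 5-FU once and at −0.28 (interval −0.58 to 0.01) after 5-FU 3 times. Peg3 stood at 0.117, 0 and 0 CPM at day 21 after 5-FU once, below every PBS once library (adjusted p = 0.132), and at 0 in all libraries of day 21 after 5-FU 3 times. After 5-FU once Peg3 passed the filter only through PBS once, so it could only come out lower, and its DESeq2 call is no support.

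The old HSCs were set against PBS 3 times. Of the members, 0 of 5 tested were called, beside 0.996% of all 12847 genes (128 genes, and 1434 at an unadjusted p under 0.05), while DESeq2 called Dlk1 among 569 genes. Ndn was highest in the old HSCs, at 26.0, 23.8 and 25.3 CPM, above all 18 other libraries, but the fold change of 0.32 (interval 0.07 to 0.57, adjusted p = 0.299) did not pass. Dlk1 stood at 4.29, 0.783 and 0.694 CPM, below every PBS 3 times library (−3.11, SE 0.75, adjusted p = 0.137). Cdkn1c stood at 90.2, 88.7 and 74.4 CPM (−0.10, interval −0.35 to 0.16), Grb10 at 308, 346 and 261 CPM (0.27, interval −0.02 to 0.55) and Igf2 at 2.79, 3.07 and 1.57 CPM (0.47, interval −0.60 to 1.54). Peg3 stood at 0.542, 0.0290 and 1.79 CPM. Age and the absence of injections cannot be told apart in this comparison.

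The PBS groups were also compared with each other. Between PBS 3 times and PBS once, 0 of 6 members tested were called, beside 0.0156% of all 12806 genes (2 genes, and 1633 at an unadjusted p under 0.05). Igf2 was lower in every PBS 3 times library (−2.05, adjusted p = 0.115), Dlk1 was higher in every one (1.47, adjusted p = 0.235), and Peg3 was lower in every one (adjusted p = 0.124). DESeq2 called these 3 members, among 547 genes. Peg3 passed the filter there only through PBS once and could only come out lower, so its call is no support. Cdkn1c, Grb10 and Ndn overlapped, with fold changes of −0.07, −0.14 and −0.01.

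Ordered by group mean, Cdkn1c ran from PBS once (94.3 CPM) over PBS 3 times (89.6), old (84.4), 5-FU 3 times at day 21 (84.2), 5-FU once at day 6 (77.8) and at day 21 (73.0) to 5-FU 3 times at day 6 (53.3). Neighbours in this order overlapped, except that the lowest group was clear of the next. Grb10 ran from 5-FU once at day 6 (406 CPM) over 5-FU 3 times at day 6 (327), old (305), PBS once (277), 5-FU once at day 21 (268) and PBS 3 times (251) to 5-FU 3 times at day 21 (207), and only the highest group was clear of its neighbour. Ndn fell into 3 levels, with old HSCs (23.8 to 26.0 CPM) clear above 5-FU once at day 6 (mean 20.9), PBS once (20.0) and PBS 3 times (19.8), and those clear above 5-FU 3 times at day 21 (14.6) and day 6 (14.5) and 5-FU once at day 21 (13.5). Dlk1 in PBS 3 times was clear of PBS once, and PBS once of 5-FU once at day 6, below which neighbours overlapped. For Igf2 only PBS once was clear of the next group.

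Over the 21 libraries, which include all groups and so share the group differences, the pair of members with the highest Pearson correlation of log2 CPM was Cdkn1c and Igf2 (r = 0.63), followed by Ndn and Peg3 (0.57) and Igf2 and Ndn (0.50), and the lowest was Cdkn1c and Grb10 (−0.25). Among the 12045 genes with a mean of at least 1 CPM, those most like Cdkn1c included Clec14a (r = 0.85) and Trim14 (0.83). Grb10 was most like Hspa5, an endoplasmic reticulum chaperone (0.86), Gusb (0.86) and Ptk2 (0.85), and Ndn most like Bex4 (0.88), Bex1 (0.87) and Fndc4 (0.87). For Igf2 they were Tulp2 (0.81), Prrc2c (0.77) and Rock2 (0.73), and for Dlk1 they were Dkkl1 (0.75), Smad6 (0.74) and Ifitm1 (0.73), lower values than for the abundant members.

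The genes around the members in their domains were followed as well. Of 33 listed, 25 had a row, and 15 were tested at day 6. After 5-FU once 1 rose and 5 fell, and after 5-FU 3 times 1 rose and 3 fell, with medians of −0.02 and −0.37. These counts stand beside 22.2% and 18.1% of all genes called. Osbpl5, a lipid transfer protein gene near Cdkn1c, fell from a range of 28.0 to 58.2 CPM in PBS once to 14.2 to 21.9 CPM in 5-FU once (−1.22, adjusted p = 0.0228). It also fell after 5-FU 3 times (−1.22, adjusted p = 0.0258), and rose again to day 21 after both schedules (1.08, adjusted p = 0.0245, and 1.16, adjusted p = 0.0366). Slc22a18 and Phlda2, which follow each other on one side of Cdkn1c, fell after 5-FU once (−0.67, adjusted p = 0.0385, and −0.72, adjusted p = 0.0391), and Tspan32 fell slightly (−0.26, adjusted p = 0.0252). Tssc4 of the same domain rose after both schedules (edgeR, 0.35, adjusted p = 0.0489, and 0.31, adjusted p = 0.0473), each time close to the threshold. The genes called in this domain thus did not all move the same way.

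In the Dlk1-Meg3 domain, Begain fell after both schedules (−0.90, adjusted p = 0.0110, and −1.28, adjusted p = 0.0103), while Dio3 was at 0 in all libraries and Rtl1 was detected in 1 library only. In the Ndn domain, Mkrn3 fell after 5-FU 3 times (−1.37, adjusted p = 0.0139), Magel2 was at 0 in all libraries, and Snrpn fell from day 6 to day 21 after both schedules (−0.86, adjusted p = 0.0455, and −1.19, adjusted p = 0.0422). Beside Igf2, Ins2 was at 0 in all libraries, and beside Peg3, so was Zim1. At day 21 after 5-FU once, at day 21 after 5-FU 3 times and in old HSCs against PBS, 0 of the 14 or 15 neighbours tested were called. The shares of all genes called were 0.221%, 0.0475% and 0.996%.

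Among 34 other imprinted genes with a row, 24 were tested at day 6, with 3 higher and 6 lower after 5-FU once. After 5-FU 3 times 3 were higher and 3 lower (medians −0.32 and −0.21, the latter the same with Plagl1 set to its bound). Of all genes, 22.2% and 18.1% were called. Plagl1, a zinc finger factor of the imprinted gene network that is known to regulate other imprinted genes, moved most: it stood at 3.00 to 7.34 CPM in PBS once and 0.919 to 1.00 CPM in 5-FU once at day 6 (−2.31, adjusted p = 0.0108), and at 3.13 to 7.68 CPM in PBS 3 times and 0 in all 3 libraries of 5-FU 3 times at day 6, at least 47.0-fold lower against 3 counts per library (adjusted p = 0.00537). After 5-FU 3 times Plagl1 passed the filter only through PBS 3 times, so it could only be called lower and that p-value is no support. The difference between the schedules was called for Plagl1 (adjusted p = 0.0170), again with 5-FU 3 times at 0, and for Slc22a3, a cation transporter (0.93, adjusted p = 0.0149). Commd1 and Bcl2l1, an anti-apoptotic gene, rose after both schedules (Bcl2l1 0.46, adjusted p = 0.0110, and 0.63, adjusted p = 0.00620). Of all imprinted genes listed, Igf2r was the 1 called at day 21 after 5-FU once against PBS once, at 5.41 to 6.42 against 13.7 to 16.1 CPM (−1.37, adjusted p = 0.0169).

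**Figure D4:**
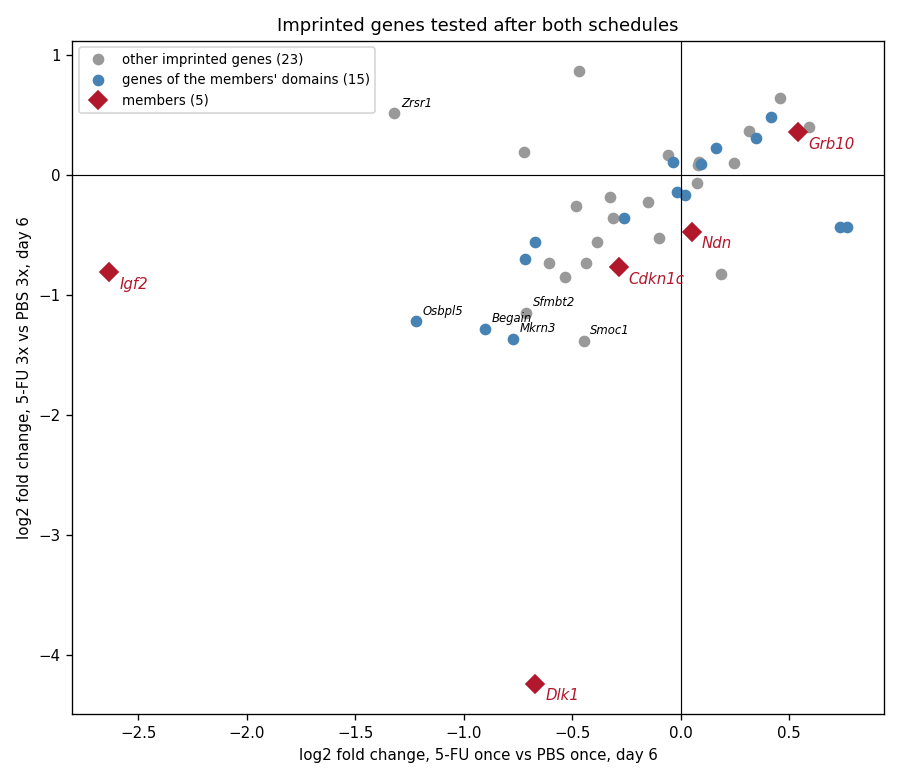
Log2 fold change of 5-FU against PBS at day 6 after 1 administration (x axis) and after 3 (y axis) for the 5 members, 15 genes of their domains and 23 other imprinted genes tested in both; Plagl1, at 0 in all libraries of 5-FU 3 times, is not drawn. Dlk1 (−0.67 and −4.24) and Igf2 (−2.64 and −0.81) stand apart from the other points, each on a different axis.

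Of 17 genes that copy or guard imprints, 14 were tested after 5-FU once, with 3 higher and 3 lower. After 5-FU 3 times 15 were tested, with 6 higher and 1 lower (medians −0.02 and 0.06). The shares of all genes called were 22.2% and 18.1%. Uhrf1, which brings Dnmt1 to newly copied DNA, was 375 to 468 CPM in PBS once and 682 to 840 CPM in 5-FU once (0.77, adjusted p = 0.00496), and also rose after 5-FU 3 times (1.35, adjusted p = 0.00265). Dnmt1 rose (0.35, adjusted p = 0.0256, and 0.88, adjusted p = 0.00864), and so did Dnmt3b (0.52, adjusted p = 0.00487, and 0.70, adjusted p = 0.0135). Tet2 and Tet3, which oxidize methylated cytosine, fell after 5-FU once (−0.59, adjusted p = 0.00461, and −0.45, adjusted p = 0.0175). From day 6 to day 21, 3 of 14 tested rose and 4 fell after each schedule, beside 26.0% and 19.5% of all genes called. The 4 that fell were Uhrf1, Dnmt1, Dnmt3a and Dnmt3b, Uhrf1 by −1.16 and −1.54 (adjusted p = 0.00148 and 0.000624). Zfp57, a zinc finger protein that binds imprinted control regions, rose from day 6 to day 21 after 5-FU 3 times (0.69, adjusted p = 0.0459). Genes of proliferation moved beside these: the sum of 18 was 1475 to 1524 CPM in PBS once, 2006 to 2166 CPM in 5-FU once, 1284 to 1471 CPM in PBS 3 times and 2218 to 2542 CPM in 5-FU 3 times at day 6, and its part in these changes was not tested.

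**Figure D5:**
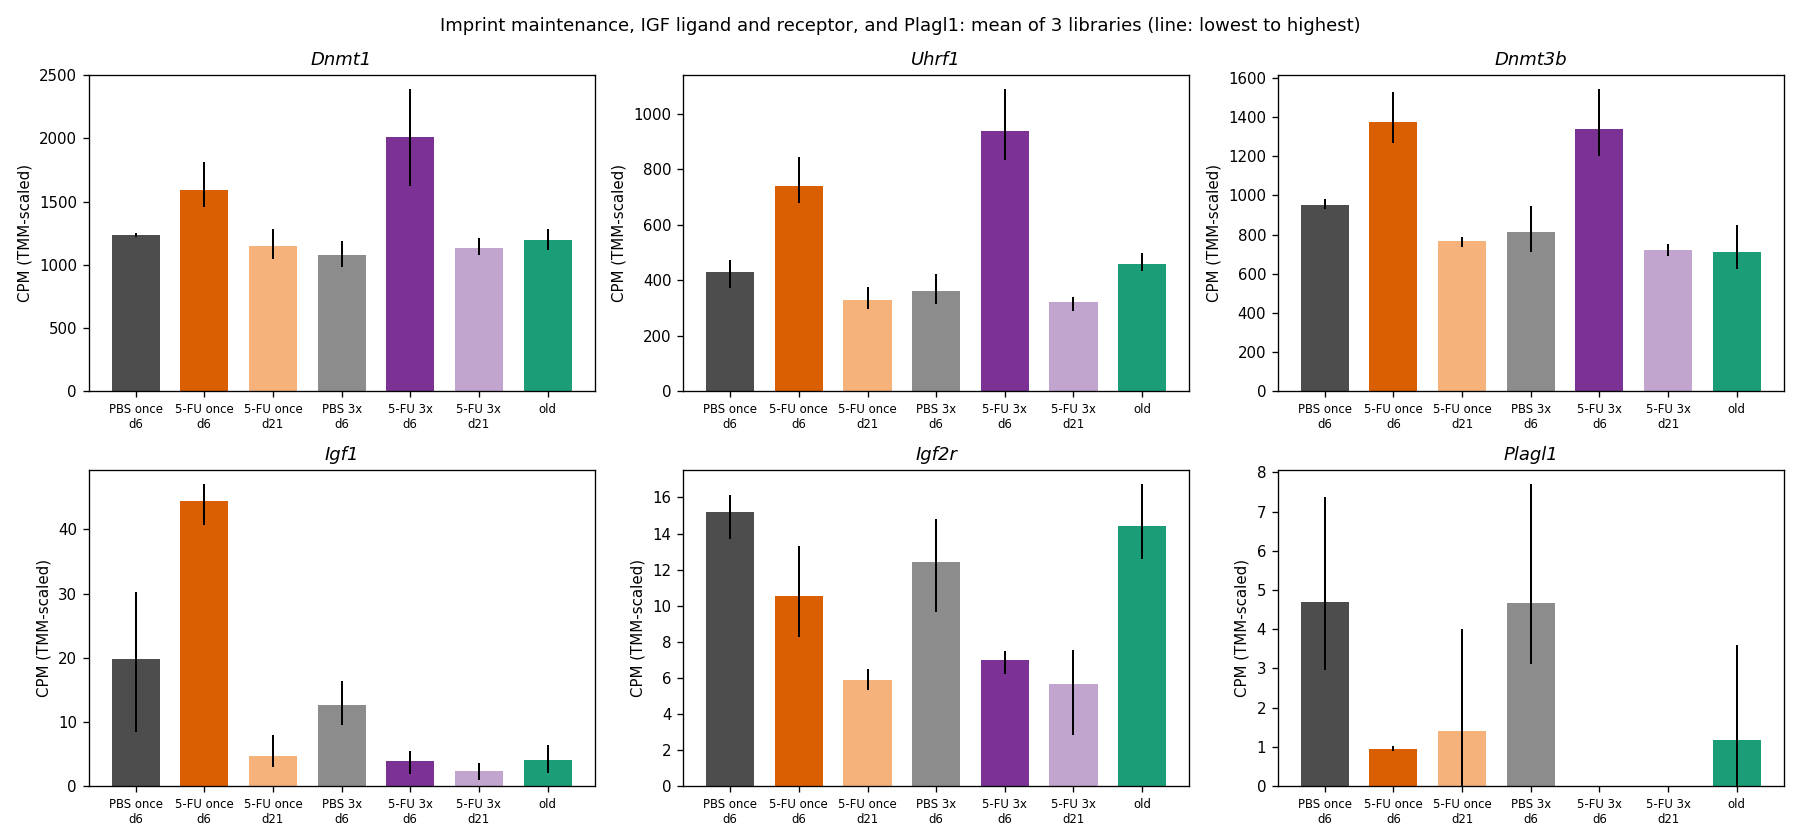
CPM (TMM-scaled) of Dnmt1, Uhrf1, Dnmt3b, Igf1, Igf2r and Plagl1 in the 7 groups; bars are the mean of 3 libraries and lines run from the lowest to the highest library. Dnmt1, Uhrf1 and Dnmt3b are highest in the day 6 groups given 5-FU, Igf1 is highest in 5-FU once at day 6 (40.8 to 47.0 CPM), and Plagl1 is at 0 in both groups given 5-FU 3 times.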

How the data were processed

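RNA was sequenced from 21 libraries of mouse HSCs (3 in each of 7 groups, assigned from the sample labels) with SMART-Seq v4 amplification and Nextera XT libraries, as single-end reads of 75 bases. The authors aligned the reads to mm10 with TopHat 2.0.13, named Cuffdiff (Cufflinks 2.2.1) for quantification, and deposited whole-number read counts per gene symbol without normalization. The program that made the counts, and its treatment of strand and of reads with several alignments, are not given in the sources used here, and the amplification kit does not mark strand. Counts of PCR-amplified reads are not independent molecules.

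From the deposited counts, each comparison was fitted in R 4.3.3 with edgeR 4.0.16 on its own groups (filterByExpr, TMM, quasi-likelihood F test, Benjamini-Hochberg adjustment over all genes kept, threshold 0.05). The SE was the log2 fold change divided by the root of F. The steps were tested on simulated counts with 200 changed genes. Positions come from GENCODE vM21, promoter windows from RefSeq. The 6 members with a row were tested in each comparison whose filter they passed; from each list of related genes, at most 8 called genes a comparison were eligible to be named, by size of change, and any further gene was picked with its values in view. Some genes that these rules would name are not reported here. The members and lists were chosen with earlier results of these data known. P-values measure the spread between 3 libraries a group, labelled as independent experiments. Alternatives were RLE factors, library size alone, DESeq2 1.42.0, no filter, the replicate number as a block, 1 fit of all 21 libraries, PBS once as the control of old HSCs, each library left out in turn and, chosen after the data were seen, all 6 PBS libraries as the control.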

Additional observations from a re-analysis of the deposited data

Results flagged for a closer look

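The effect of 5-FU on Dlk1 at day 6 differed between the schedules by −3.56 on the log2 scale (after 3 administrations minus after 1), by the interaction test of edgeR over 12 libraries (SE 0.66, adjusted p = 0.0394). Dlk1 was lower after 5-FU in both schedules, with log2 fold changes of −0.67 after 1 administration, where the test was not passed, and −4.24 after 3. It was lower in 3 of 3 libraries of 5-FU than in every PBS library of the same schedule in both cases. The call for the difference was lost in 11 of 18 alternatives, with adjusted p up to 0.202 (edgeR). Dlk1 also differed between the controls, at 9.48 to 27.5 CPM in PBS 3 times and 5.19 to 7.02 CPM in PBS once. At day 6, the single administration groups are also those whose columns carry the name suffix. The schedule and what the suffix stands for therefore cannot be told apart there.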

How the results depend on the processing

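Of 656 single-gene values under the alternatives, 579 kept their direction and their side of the threshold, 39 kept the direction but lost the call, 11 gained it and 27 changed direction. Fits that leave out a library have fewer samples, and for other changes the cause was not tested. Depth limits Peg3, which was above the floor of 3 counts in 8 of 21 libraries.

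Members called at day 6 after 5-FU once fell from 2 to 1 in a single fit of all 21 libraries and with all 6 PBS libraries as the control. The replicate numbers did not pair the libraries, since the deviations of same-numbered libraries correlated between −0.0458 and 0.0734. With the replicate block, 1509 genes and 2 members were called for 5-FU 3 times at day 6, 3 genes for day 21 after 5-FU once against PBS, 0 for day 21 after 5-FU 3 times against PBS (edgeR, against 6 in the fit without it), 30 for old HSCs, 0 for PBS 3 times against PBS once (2 without it), and 55 genes and 0 members for the interaction, where Dlk1 was at −3.41 with adjusted p 0.0606. The block turned the Igf2 fold change of day 21 against day 6 after 5-FU once to −0.88 and of day 21 against PBS after 5-FU 3 times to −0.83, neither called in any fit.

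For day 21 after 5-FU once against PBS, library size alone gave 83 genes, DESeq2 725 genes and 3 members, the single fit 257 genes and 1 member (Ndn), and all 6 PBS libraries 143 genes and 1 member (Ndn), with Grb10 at 0.023. For day 21 after 5-FU 3 times against PBS, RLE factors gave 3 genes, library size alone 15, DESeq2 592 and 1 member, the single fit 185, and all 6 PBS libraries 131, with Igf2 at −1.34. For old HSCs, DESeq2 gave 569 genes and 1 member, PBS once as the control 242 genes with Igf2 at −1.57, and all 6 PBS libraries 262 genes with Igf2 at −0.89. Between the PBS groups, DESeq2 gave 547 genes and 3 members and the single fit 19 genes. For the interaction, DESeq2 gave 715 genes and the single fit 0 members.

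Leaving out 1 library gave 1563 to 1947 genes for 5-FU once at day 6, 1231 to 1582 genes and 1 to 3 members for 5-FU 3 times at day 6, 1736 to 2978 genes for day 21 against day 6 after 5-FU once, 1351 to 1744 genes and 1 member in each fit for that after 5-FU 3 times, 1 to 32 genes for day 21 after 5-FU once against PBS, 1 to 4 for that after 5-FU 3 times, 20 to 76 for old HSCs, 0 to 1 between the PBS groups, and 38 to 170 genes and 0 to 1 members for the interaction. It changed the direction of values that no fit called for 5-FU once at day 6 (Ndn, −0.0041 to 0.086), day 21 against day 6 after 5-FU once (Igf2, −0.85 to 0.63; Cdkn1c, −0.19 to 0.013) and after 5-FU 3 times (Dlk1, −0.20 to 1.70; Igf2, −1.14 to 8.69; Ndn, −0.10 to 0.12), day 21 against PBS after 5-FU once (Grb10, −0.13 to 0.0041) and after 5-FU 3 times (Cdkn1c, −0.15 to 0.00026; Igf2, −1.94 to 0.51), the PBS groups (Ndn, −0.090 to 0.054) and the interaction (Peg3, −0.13 to 7.38). For the interaction, Igf2 ran from −6.02 to 2.42. It was called (edgeR, adjusted p = 0.0494) only without 5-FU 3 times replicate 3, when the libraries left in that group are all at 0. The difference could then only come out negative, so that call is no support.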

Other observations

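Beside the imprinted members, genes known to hold HSCs in quiescence moved in both directions at day 6. Of 14 tested, 4 rose and 5 fell after 5-FU once, and 2 rose and 7 fell after 5-FU 3 times (edgeR). These counts stand beside 22.2% and 18.1% of all genes called. Txnip fell after both schedules (log2 fold change −0.89 in both, adjusted p = 0.00161 and 0.00163). Mecom, a transcription factor of HSCs, rose (0.54, adjusted p = 0.00572, and 0.35, adjusted p = 0.0186). From day 6 to day 21, 7 of the 14 rose after each schedule, while 3 fell after 5-FU once and 0 after 5-FU 3 times. The shares of all genes called there were 26.0% and 19.5%. Kit, whose protein the gate used, fell after 5-FU once from 989 to 1162 CPM in PBS to 583 to 622 CPM, and this sorting difference cannot be told apart from the treatment.

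Of 18 proliferation genes, 11 rose after 5-FU once and 17 after 5-FU 3 times, and none fell in either. The shares of all genes called were 22.2% and 18.1%. Birc5 rose by 0.75 and 1.10 on the log2 scale (adjusted p = 0.00326 and 0.00259). The difference between the schedules passed the test for Plk1, a mitotic kinase (0.86, adjusted p = 0.0319), and Fgd5, an HSC marker (−1.04, adjusted p = 0.0453). By day 21, 18 and 17 of the 18 had fallen from day 6, beside 26.0% and 19.5% of all genes called.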
